A study of Mus musculus with 12 samples.

Results

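The genes described here encode 9 proteoglycan core proteins of the heart's extracellular matrix, namely 8 small leucine-rich proteoglycans (SLRPs) and versican. They were taken by name, and each symbol matched 1 of the 38293 gene identifiers that both count tables hold: decorin (Dcn), biglycan (Bgn), asporin (Aspn), lumican (Lum), fibromodulin (Fmod), prolargin (Prelp), osteomodulin (Omd), osteoglycin (Ogn) and versican (Vcan). RNA sequencing was done on heart tissue from 4 groups of 3 mice, and all 9 genes had enough counts to be tested in both tables. The first table holds C57Bl/6J wild-type mice after sham surgery (WT sham) and wild-type mice 14 days after ischaemia-reperfusion injury (WT IR), in which the left anterior descending coronary artery is tied off for a limited time and then reopened. The second table holds Zeb2 cTg mice and their wild-type littermates (Zeb2 WT), which the labels also give as C57Bl/6J, all injured 14 days earlier. In Zeb2 cTg mice, a Zeb2 transgene sits behind a stop cassette in the Rosa26 locus, and a Cre recombinase under the Myh6 promoter, which is active in cardiomyocytes, removes that stop. Mice were 8 to 9 weeks old per the methods. No uninjured Zeb2 cTg heart was analysed here, so the second table compares injured with injured hearts only. The submitters' records differ on the tissue: the sample labels name the left ventricle, the deposited design names the infarct with its border, and the methods name the remote zone.

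SLRPs are compact proteins built of leucine-rich repeats, most of which bind fibrillar collagen and set the width and spacing of its fibrils, and several carry chondroitin, dermatan or keratan sulphate chains. They fall into classes by their sequence: class I holds decorin, biglycan and asporin, class II holds lumican, fibromodulin, prolargin and osteomodulin, and osteoglycin belongs to class III. Versican is no SLRP but a large chondroitin sulphate proteoglycan that binds hyaluronan. In the heart these proteins are made mainly by fibroblasts and valve cells, and after infarction they become part of the scar.

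In total, between 20215781 and 36816818 reads were counted on genes per library, of which 60.6% to 73.5% fell on the mitochondrial genome. Levels are given in counts per 1e6 counts (CPM) after TMM normalisation within each table, where 1 CPM stands for 17.2 to 37.8 counts. Dcn had the most counts of the 9 genes (3730 to 21456 per library), whereas Fmod went down to 1 count and Omd to 8 counts in the libraries where they were lowest. No pair of libraries within a table was alike to within counting error, with a chi-square of 7.42 to 134 per gene. Zeb2 was at 54.7, 57.8 and 67.0 CPM in the 3 Zeb2 WT IR libraries and at 55.5, 56.9 and 58.7 CPM in the 3 libraries with the Zeb2 cTg IR label. The transgene's gene was therefore not higher in the group named for it (log2 fold change -0.07, SE 0.12, adjusted p = 0.750, edgeR's quasi-likelihood test), so this group is called the cTg-labelled libraries from here on. Protein and measurements specific to the transgene were not analysed here, and whether reads of the transgene are counted in Zeb2 was not tested.

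To compare the genes with one another, CPM were divided by the combined length of each gene's exons in kb. In WT sham hearts Dcn led with a mean of 35.2 CPM per kb, followed by Ogn with 28.5 CPM per kb, and these genes held ranks 1 and 2 in each of the 12 libraries. Lum (11.3 CPM per kb) and Bgn (9.80 CPM per kb) came next, and their ranges over the sham libraries, 9.92 to 12.1 and 9.44 to 10.2 CPM per kb, overlapped. Aspn followed with 6.86 CPM per kb, then Prelp with 4.25 and Vcan with 1.74 CPM per kb. Omd (0.250 CPM per kb) and Fmod (0.130 CPM per kb) were by far the lowest, so the uninjured heart's messages of this family were mostly decorin and osteoglycin. Prelp held rank 6 and Vcan rank 7 in every library. These lengths join all annotated transcripts of a gene and the transcripts in use were not known, so levels of genes with many transcripts, such as Dcn and Vcan, are approximate, and the splice forms of versican cannot be told apart in gene counts.

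Several of these genes lie side by side in the mouse genome (build GRCm38). On chromosome 13, Aspn (13:49544443-49567565), Omd (13:49582462-49592822) and Ogn (13:49608046-49624501) follow one another on the plus strand, with gaps of 14.9 kb and 15.2 kb between them, and with Ecm2, a further SLRP gene 11.7 kb before Aspn, they span 119.7 kb. On chromosome 10, Dcn (10:97479609-97518143) and Lum (10:97565128-97572703) are 47.0 kb apart on the plus strand. On chromosome 1, Prelp (1:133910304-133921414, minus strand) and Fmod (1:134037254-134048277, plus strand) are 115.8 kb apart. Bgn (X:73483602-73495933, plus strand) and Vcan (13:89655312-89742509, minus strand) have no other member nearby. Aspn overlaps the exons of Cenpp by 7 bases and Prelp those of the antisense gene Gm15851 by 350 bases, in both cases on the other strand. The libraries were stranded, but whether strand was used in counting is not given in the sources used here.

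The 250 bases before the start of the adjacent genes Aspn, Omd and Ogn are shown because these genes lie side by side, and those of Fmod because it had the largest change after injury. They come from RefSeq (GRCm38.p6, plus strand, 5′ to 3′), which held 7 of the 9 members, and capitals mark TATAAA or its reverse complement TTTATA.
Aspn: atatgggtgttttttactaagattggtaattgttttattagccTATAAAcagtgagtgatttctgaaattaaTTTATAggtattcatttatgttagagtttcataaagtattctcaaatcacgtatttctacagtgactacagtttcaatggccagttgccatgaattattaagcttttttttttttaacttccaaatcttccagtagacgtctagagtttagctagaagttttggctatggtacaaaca
Omd: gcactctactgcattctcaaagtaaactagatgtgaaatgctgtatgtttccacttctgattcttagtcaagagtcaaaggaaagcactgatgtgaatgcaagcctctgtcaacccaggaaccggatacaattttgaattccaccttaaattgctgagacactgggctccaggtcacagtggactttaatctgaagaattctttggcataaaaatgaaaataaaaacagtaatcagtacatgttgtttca
Ogn: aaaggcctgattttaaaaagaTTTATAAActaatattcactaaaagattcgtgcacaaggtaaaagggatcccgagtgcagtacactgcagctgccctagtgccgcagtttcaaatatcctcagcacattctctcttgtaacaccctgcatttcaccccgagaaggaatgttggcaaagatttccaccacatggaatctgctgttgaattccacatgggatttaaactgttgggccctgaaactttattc
Fmod: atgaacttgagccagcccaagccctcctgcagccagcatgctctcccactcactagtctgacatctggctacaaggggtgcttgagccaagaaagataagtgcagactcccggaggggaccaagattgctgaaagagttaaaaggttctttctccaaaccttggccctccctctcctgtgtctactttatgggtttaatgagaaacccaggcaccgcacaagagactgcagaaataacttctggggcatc
These windows are chr13:49544193-49544442, chr13:49582212-49582461, chr13:49607765-49608014 and chr1:134037004-134037253. TATAAA or TTTATA was found in the windows of Aspn, with matches starting 207 and 178 bases before the RefSeq start, and of Ogn, with overlapping matches at 229 and 227 bases, but in none of the other 5. Of all 32851 RefSeq windows of this length, 12.4% held such a match. Neither CACCTG, an E-box that ZEB proteins are known to bind (either strand, in 17.2% of all windows), nor the AP-1 motif TGANTCA (in 6.7%) occurred in any of the 7 members' windows, which says only that these letters are absent from these bases.

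All 9 genes were higher in WT IR than in WT sham hearts, between 2.26-fold for Ogn and 23.2-fold for Fmod, and in all 9 the lowest injured heart lay above the highest sham heart. All 9 passed an adjusted p of 0.05 (edgeR's quasi-likelihood test). Over all 13756 genes tested, 11.0% passed as higher and 9.74% as lower, and the groups did not overlap for 20.5% of genes in the higher and 19.3% in the lower direction. The median log2 fold change of the 9 genes was 1.64, against 0.0064 over all genes tested. Because this is whole tissue, more cells that express a gene and more RNA per cell cannot be told apart.

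Among the class I genes, Dcn, whose product coats collagen fibrils and binds TGF-beta, was at 204, 196 and 217 CPM in the sham hearts and at 381, 533 and 800 CPM in the WT IR hearts. Its mean went from 206 ± 10.7 to 571 ± 212 CPM (SD, n = 3 each). Dcn thus rose with a log2 fold change of 1.47 (SE 0.22, adjusted p = 0.00464, edgeR's quasi-likelihood test), and the sham hearts were tightly grouped while the injured hearts were spread over more than 2-fold. Bgn, the closest relative of decorin, which can also signal through Toll-like receptors when it is soluble, was at 61.9, 57.6 and 59.9 CPM in sham and at 110, 200 and 248 CPM in WT IR hearts, a log2 fold change of 1.64 (SE 0.24, adjusted p = 0.00419). Aspn, which binds collagen through a site that overlaps that of decorin and restrains TGF-beta signalling in cartilage, changed most within this class. It was at 16.7, 15.5 and 16.3 CPM in sham and at 65.9, 97.5 and 169 CPM in WT IR hearts, a log2 fold change of 2.78 (SE 0.29, adjusted p = 0.00200). In the lowest injured heart Aspn was still several times above every sham heart.

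Class II held the gene with the largest change. Fmod, whose product binds collagen I and helps its cross-linking, was close to the detection limit in sham hearts, with 15, 16 and 4 counts (0.567, 0.491 and 0.233 CPM), and had 173, 351 and 471 counts in WT IR hearts (5.41, 9.28 and 17.6 CPM). The fitted log2 fold change of Fmod was 4.53 (SE 0.51, adjusted p = 0.00222, edgeR's quasi-likelihood test). Since the sham hearts held only 35 counts in all, the pooled ratio of 22.4 has an exact 95% interval of 16.0 to 32.4, which covers counting error only. Lum, a keratan sulphate proteoglycan that shares its collagen site with fibromodulin, was at 29.0, 24.3 and 29.7 CPM in sham and at 79.3, 128 and 200 CPM in WT IR hearts (log2 fold change 2.30, SE 0.28, adjusted p = 0.00268). Omd, best known from bone and dentine, was at 0.605, 0.613 and 0.466 CPM in sham and at 2.66, 3.28 and 4.85 CPM in WT IR hearts. Like Fmod it was scarce in uninjured tissue, and it rose as well (log2 fold change 2.63, SE 0.28, adjusted p = 0.00208), with a pooled ratio of 6.08 (exact 95% interval 4.43 to 8.52, counting error only). Prelp, which anchors basement membranes to the underlying matrix, was at 15.5, 15.0 and 15.7 CPM in sham and at 26.4, 38.7 and 47.2 CPM in WT IR hearts. Its rise was smaller than those of the other class II genes (log2 fold change 1.28, SE 0.18, adjusted p = 0.00400).

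Ogn, the class III member, known for its part in collagen assembly in the heart, had the smallest change of the 9 genes. It was at 68.7, 72.4 and 78.5 CPM in sham and at 120, 151 and 224 CPM in WT IR hearts, a log2 fold change of 1.17 (SE 0.19, adjusted p = 0.00599, edgeR's quasi-likelihood test). Vcan, which forms a loose provisional matrix with hyaluronan in healing tissue, was at 29.0, 21.7 and 24.9 CPM in sham and at 40.3, 74.2 and 96.4 CPM in WT IR hearts. Its log2 fold change of 1.48 (SE 0.26, adjusted p = 0.00785) was the only one of the 9 that lost its call when a single library was left out, with 1.36 and an adjusted p of 0.0576 without WT sham replicate 2. The WT IR heart of replicate 3 was the highest and that of replicate 1 the lowest for all 9 genes, so the injured hearts kept 1 order across the family.

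**Figure D1:**
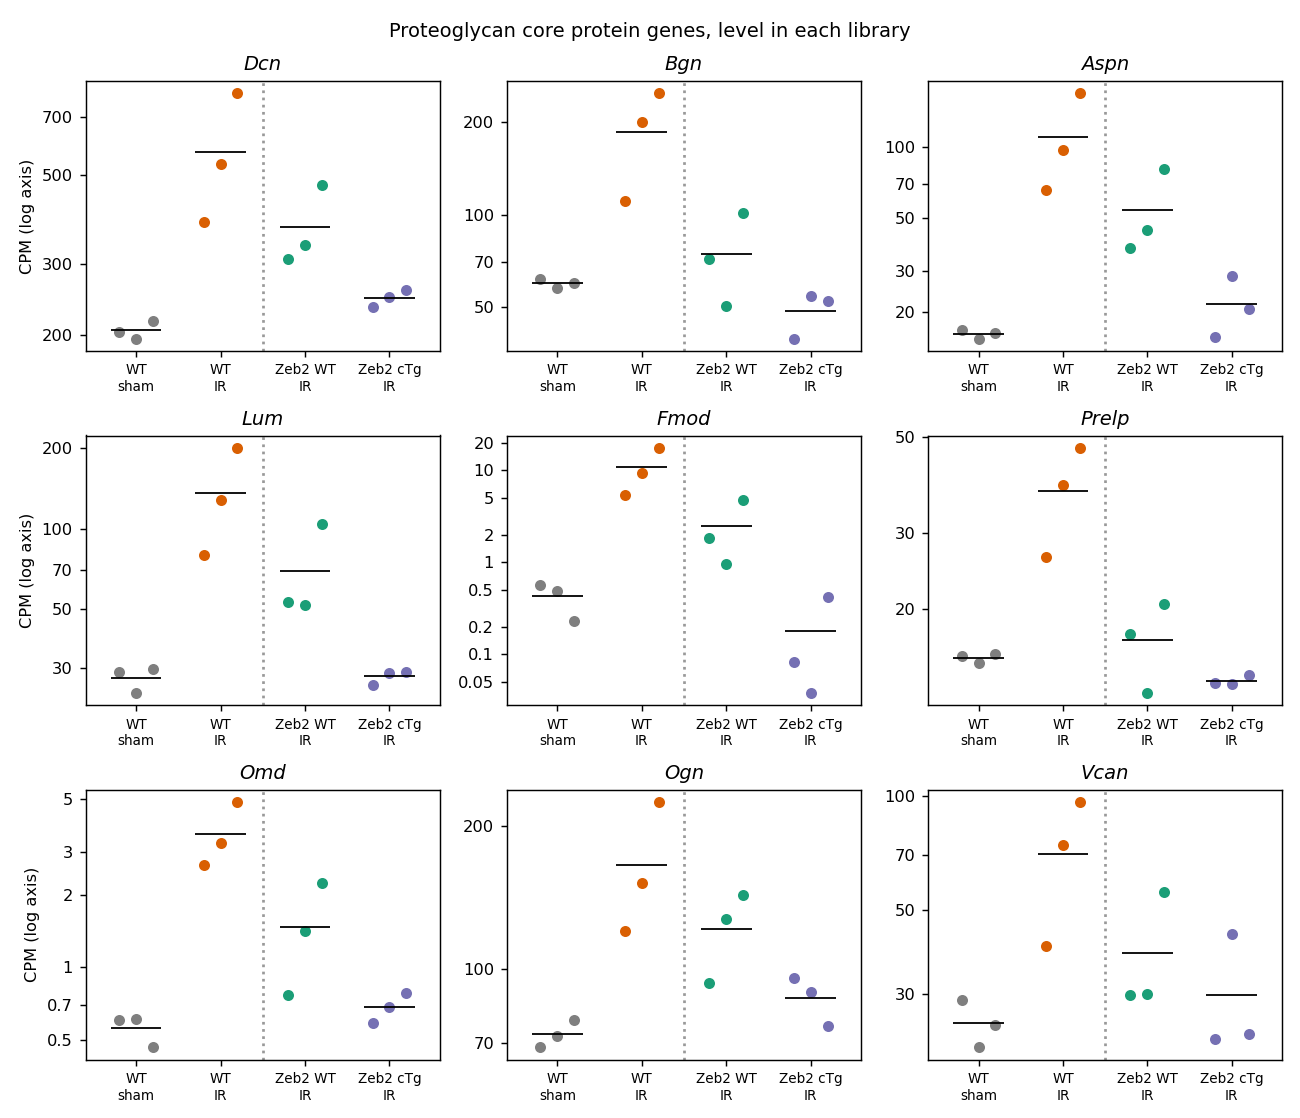
Level of each of the 9 genes in each library in CPM on a log axis, with a panel for each gene, 1 point for each library and a line at the group mean. The dotted line separates the 2 count tables, which were normalised separately. All WT IR points lie above all WT sham points in each panel, whereas in the second table the groups overlap for 5 of the 9 genes.

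The family did not rise evenly, and its make-up differed between the groups. Summed over the 9 genes, the level was 93.7 to 103 CPM per kb in the sham hearts and 204, 297 and 446 CPM per kb in the WT IR hearts. Dcn and Ogn together held 63.2% to 65.9% of this sum in sham hearts and 50.3% to 55.1% in WT IR hearts. Aspn went from 6.72% to 7.28% in sham to 13.8% to 16.1% in WT IR hearts, and Lum from 10.6% to 12.2% to 15.9% to 18.4%. Aspn thereby held rank 4 of the 9 messages in all WT IR hearts, a rank that Bgn held in all sham hearts, and Fmod, last in sham hearts, passed Omd. Fmod remained a minor message in injured hearts, with 0.803% to 1.19% of the sum.

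**Figure D2:**
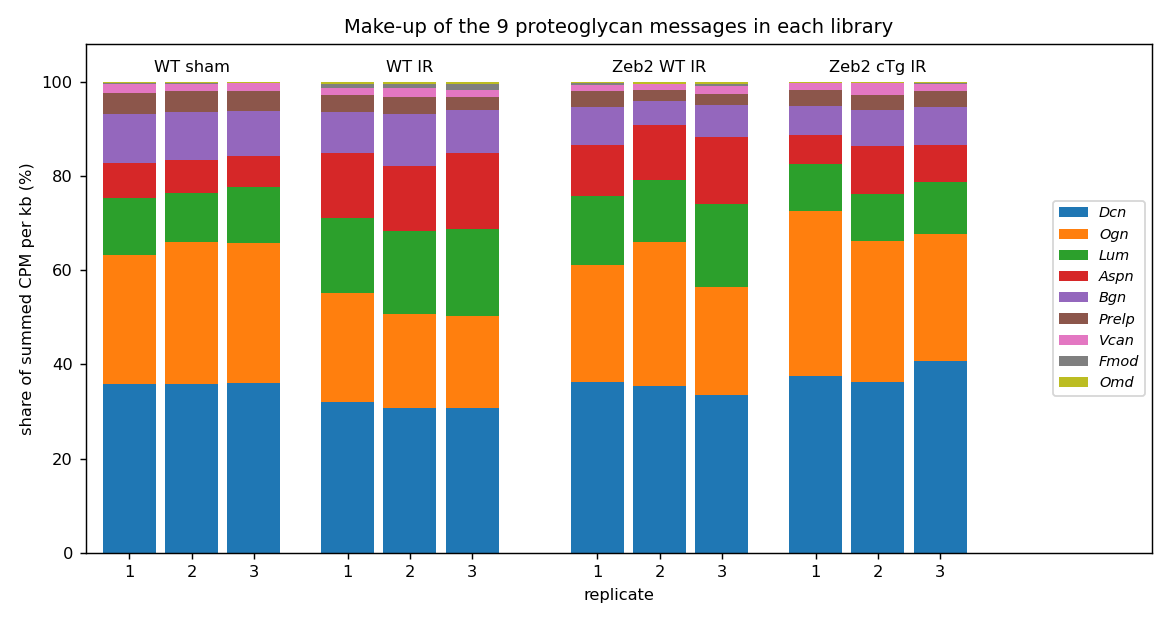
Share of each gene in the summed CPM per kb of the 9 genes, in percent, with 1 bar for each library and replicate numbers on the horizontal axis. Dcn and Ogn fill 63.2% to 65.9% of the sham bars and 50.3% to 55.1% of the WT IR bars, and 66.1% to 72.5% of the bars of the cTg-labelled libraries.

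Ratios of 2 genes within a library do not depend on how libraries are scaled, and 3 of them were compared in both tables (6 tests). The ratio of Bgn to Dcn counts was 0.304, 0.294 and 0.276 in sham and 0.290, 0.376 and 0.310 in WT IR hearts, with overlapping groups and a log2 difference of 0.15 (p = 0.3, two-sided exact permutation test, adjusted p = 0.36). The ratio of Aspn to Dcn was 0.0820, 0.0789 and 0.0751 in sham hearts and 0.173, 0.183 and 0.211 in WT IR hearts. There was thus no overlap between the groups for Aspn relative to Dcn, and the ratio was 2.4-fold higher in injured hearts (p = 0.1 by the exact permutation test, adjusted p = 0.15). For Fmod relative to Lum, which bind the same collagen site, the ratio was 5.20-fold higher in WT IR than in sham hearts, again with no overlap and with the same p. With 3 against 3 libraries no p under 0.1 is possible, so none of these ratios could pass the threshold.

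**Figure D3:**
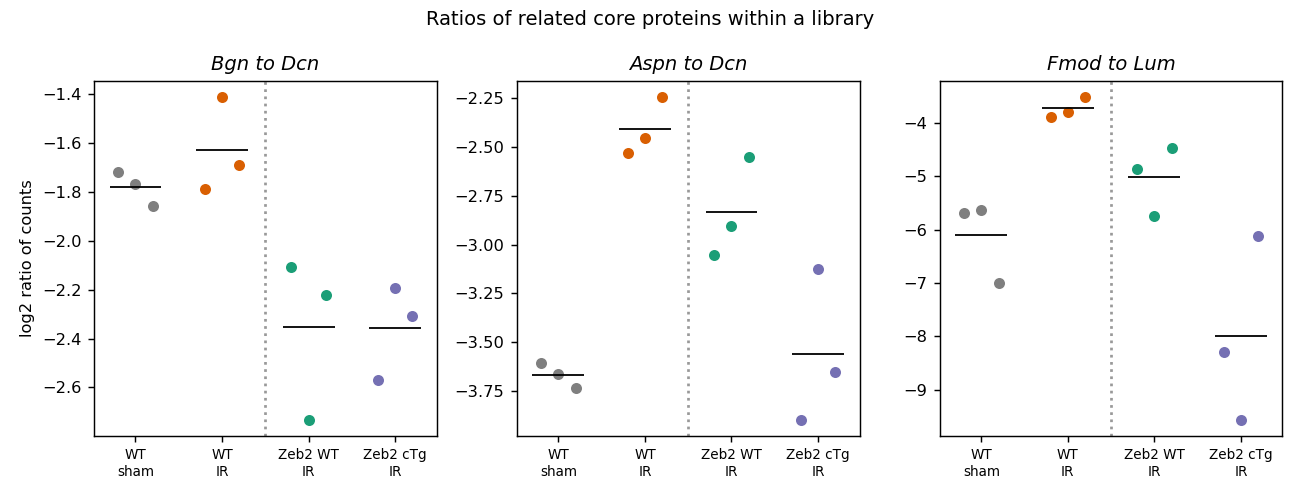
Log2 ratio of the counts of Bgn to Dcn, Aspn to Dcn and Fmod to Lum in each library, with a line at each group mean and a dotted line between the tables. The WT sham and WT IR points overlap for Bgn to Dcn and are separate for the other ratios.

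Genes around the family were examined by lists that were drawn up by function. Of 34 other proteoglycan core proteins, 22 were tested in the WT table, of which 9 rose and 2 fell after injury, with a median log2 fold change of 0.52. Ecm2, the neighbour of Aspn, rose with a log2 fold change of 1.12 (SE 0.17, adjusted p = 0.00494, edgeR's quasi-likelihood test), and so did Acan, the core protein of cartilage aggrecan, from a very low level (0.0480 ± 0.0587 to 0.741 ± 0.0703 CPM, log2 fold change 3.71, adjusted p = 0.00402). Several cell surface proteoglycans rose too, namely the glypicans Gpc6 (1.15) and Gpc3 (1.22) and the syndecans Sdc2 (0.70) and Sdc1 (1.23). Gpc1 (log2 fold change -0.48, adjusted p = 0.0140) and Hspg2, the basement membrane proteoglycan perlecan (-0.36, adjusted p = 0.0370), fell, and are named here after their values had been seen. The summed level of the list was 691 to 793 CPM in sham and 672 to 689 CPM in WT IR hearts. Of further SLRP genes of this list, Tsku rose (1.40 to 3.27 CPM, log2 fold change 1.22, adjusted p = 0.0202) and Podn was at 3.26 CPM in sham and 3.44 CPM in WT IR hearts (0.10, adjusted p = 0.653), both named after their values had been seen. Kera and Optc had at most 1 count in any library of the WT table, and Epyc had 0 counts in all sham hearts and 6, 6 and 15 counts in WT IR hearts, too few to be tested.

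Of 29 enzymes that build and sulphate the glycosaminoglycan chains, 26 were tested, of which 10 rose and none fell in WT IR hearts (median log2 fold change 0.30). The largest of those named here were Dsel (1.5, SE 0.19, adjusted p = 0.00345, edgeR's quasi-likelihood test) and Dse (1.43, SE 0.25, adjusted p = 0.00748), the epimerases that turn chondroitin into dermatan sulphate, the chain that decorin and biglycan carry in many tissues. Papss2, which makes the sulphate donor, rose with 0.83 (adjusted p = 0.00494), and Ugdh, which makes a sugar precursor of the chains, with 0.93 (adjusted p = 0.0208). Changes of the chain-building Csgalnact2 (0.53) and Chsy1 (0.58) were smaller but passed as well. Of 22 genes of the versican and hyaluronan network, 16 were tested, 5 rose and none fell: the versican-binding fibulins Fbln1 (log2 fold change 2.04, adjusted p = 0.00345) and Fbln2 (0.79), the versican-cleaving protease Adamts5 (0.46), and the hyaluronan-binding Hmmr (1.42) and Tnfaip6 (1.58). Of 18 collagens, growth factors, proteases and receptors that bind or act on SLRPs, 14 rose and none fell, with a median of 1.23. Col3a1, a fibrillar collagen, went from 218 ± 114 to 1379 ± 629 CPM (log2 fold change 2.66, adjusted p = 0.00478), and Tgfb3, a ligand that decorin can bind, from 6.35 ± 1.12 to 27.3 ± 8.96 CPM (2.10, adjusted p = 0.00208). Col5a2 (2.19), Mmp2 (1.79), Tgfb2 (1.42) and Mmp14 (1.38) were also among the 14.

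Markers of several cell types moved along with the family. Of 12 markers of activated fibroblasts, 11 rose in WT IR hearts, and only Acta2 fell. Their summed level was 245, 152 and 141 CPM in sham and 558, 1054 and 1627 CPM in WT IR hearts, in the same order over the injured hearts as all 9 proteoglycan genes. This order was not particular to them. The sums of the general fibroblast, macrophage, atrial and cartilage, tendon and valve lists had it too. Those of the cardiomyocyte and the smooth muscle and pericyte lists had the reverse order, and the endothelial and mesothelial sums had neither. Of 10 general fibroblast markers 6 rose, and their sum went from 533 to 587 CPM in sham to 702 to 1060 CPM in WT IR hearts. Of 10 cartilage, tendon and valve genes 5 rose of 6 tested, with sums of 3.18 to 3.96 CPM in sham and 29.1 to 76.9 CPM in WT IR hearts, most of the latter from Comp, while Chad and Tnmd were at 0 in all sham hearts. Of 8 macrophage markers 7 rose, with sums of 141 to 156 and 211 to 401 CPM. Of 15 cardiomyocyte markers 5 fell and none rose, with sums of 65225 to 72103 CPM in sham and 50149 to 64749 CPM in WT IR hearts. Most of these sums came from Ttn, with means of 39258 and 33774 CPM (log2 fold change -0.22, adjusted p = 0.521, edgeR's quasi-likelihood test). No marker of 8 for endothelial cells passed with edgeR, DESeq2 or limma-voom, while 1 was higher and 1 lower at an unadjusted p under 0.05. At least 4882 of all 13756 genes met that cut, 4882 being the rank of B4galt4 (unadjusted p = 0.0468, edgeR's quasi-likelihood test). For smooth muscle cells and pericytes 2 of 8 markers rose. Atrial and mesothelial markers were read for tissue from the atria or the heart's surface. Of 3 atrial markers tested, Nppa and Dkk3 rose and Myl4 did not pass (0.59, adjusted p = 0.209, edgeR's quasi-likelihood test). Myl7 (0.0869 CPM in sham, 0.0301 CPM in WT IR hearts) and Sln (0 and 0.0124 CPM) were too low to be tested. Of 4 mesothelial markers tested 1 fell (Wt1). The part of these cell types in the rise of the proteoglycan genes was not tested. Where libraries were scaled to the fibroblast markers without Gsn, a scaling added after the data had been seen because Gsn held 48.1% to 69.2% of that list, Bgn, Aspn, Lum, Fmod and Omd still passed, with log2 fold changes from 0.67 for Bgn to 3.55 for Fmod, whereas the other members did not: Dcn was at 0.51 (adjusted p = 0.154), Vcan at 0.51 (0.0964), Prelp at 0.34 (0.248) and Ogn at 0.22 (0.507). This scaling moved the median of all genes to -0.87.

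The second table compares the cTg-labelled libraries with those of injured Zeb2 WT littermates. All 9 genes had lower means in the cTg-labelled libraries, of which 3, Aspn, Lum and Fmod, passed an adjusted p of 0.05, and none was higher even at an unadjusted p under 0.05, where 7 were lower (edgeR's quasi-likelihood test). DESeq2 called 4 of them lower and limma-voom 1, where DESeq2 called 1096 genes in all and edgeR 474. Over all 13018 genes tested, 1.51% passed as lower and 2.14% as higher. The unadjusted cut is loose: C1qb, with an unadjusted p of 0.0479 by edgeR's test, had rank 3056. At least that many genes of either direction were thus under 0.05 unadjusted. The groups did not overlap for 4 of the 9 genes (Dcn, Aspn, Lum and Fmod), all in the lower direction, against 12.8% of all genes in the lower and 13.4% in the higher direction. The median log2 fold change of the 9 genes was -0.61, against 0.0059 over all genes.

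Lum was at 53.0, 52.0 and 104 CPM in the Zeb2 WT IR hearts and at 26.1, 28.8 and 29.2 CPM in the cTg-labelled libraries. The latter were nearly alike, and the highest of them lay well under the lowest littermate. The log2 fold change of Lum was -1.31 (SE 0.25, adjusted p = 0.0257, edgeR's quasi-likelihood test), and the call was lost without Zeb2 cTg IR replicate 1 (-1.27, adjusted p = 0.0892) or replicate 3 (-1.34, adjusted p = 0.0997). Aspn was at 37.3, 44.6 and 80.6 CPM in Zeb2 WT IR and at 15.8, 28.4 and 20.6 CPM in the cTg-labelled libraries. It passed only narrowly (log2 fold change -1.33, SE 0.30, adjusted p = 0.0454). It missed the threshold without Zeb2 WT IR replicate 2 (-1.45, adjusted p = 0.0645) or replicate 3 (-0.93, 0.147) and without Zeb2 cTg IR replicate 1 (-1.15, 0.144) or replicate 3 (-1.29, 0.153).

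Fmod had 50, 24 and 142 counts in the Zeb2 WT IR hearts (1.83, 0.971 and 4.73 CPM) and 2, 1 and 15 counts in the cTg-labelled libraries (0.0838, 0.0382 and 0.421 CPM). Replicates 1 and 2 were under every other library of the series and replicate 3 within the range of the sham hearts, although the tables were normalised separately. The fitted log2 fold change of Fmod was -3.62 (SE 0.75, adjusted p = 0.0346, edgeR's quasi-likelihood test), and the pooled ratio of 0.0798 has an exact 95% interval of 0.0464 to 0.129 for counting error only. The call was lost without Zeb2 WT IR replicate 3 (-2.79, adjusted p = 0.133) or without Zeb2 cTg IR replicate 1 (-3.33, adjusted p = 0.113), and the value moved to -5.29 when Zeb2 cTg IR replicate 3 was left out.

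Dcn did not overlap between the groups but missed the threshold. It was at 310, 334 and 472 CPM in Zeb2 WT IR and at 235, 248 and 259 CPM in the cTg-labelled libraries, with a log2 fold change of -0.59 (SE 0.17, adjusted p = 0.0793, edgeR's quasi-likelihood test). Omd was at 0.770, 1.42 and 2.23 CPM against 0.587, 0.687 and 0.786 CPM (log2 fold change -1.09, SE 0.39, adjusted p = 0.136). Its highest cTg-labelled library was just above its lowest littermate, and the pooled ratio was 0.467 (exact 95% interval 0.337 to 0.641, counting error only). Ogn was at 93.5, 128 and 143 CPM in Zeb2 WT IR and at 95.9, 89.5 and 76.0 CPM in the cTg-labelled libraries (log2 fold change -0.48, SE 0.17, adjusted p = 0.133). The groups overlapped by a single pair of libraries for Ogn, as for Omd.

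For the other members the groups overlapped and no call was made. Bgn was at 71.8, 50.3 and 101 CPM in Zeb2 WT IR and at 39.6, 54.3 and 52.4 CPM in the cTg-labelled libraries (log2 fold change -0.61, SE 0.23, adjusted p = 0.158, edgeR's quasi-likelihood test). Prelp was at 17.5, 12.7 and 20.5 CPM against 13.5, 13.4 and 14.0 CPM (-0.32, SE 0.17, adjusted p = 0.289). Vcan was at 29.8, 30.0 and 55.8 CPM against 22.8, 43.3 and 23.5 CPM, the value of 43.3 being that of replicate 2 (-0.37, SE 0.30, adjusted p = 0.475). The Zeb2 WT IR heart of replicate 3 had the highest level of all 9 genes among the littermates. Without that heart the log2 fold change of Vcan was -0.0035 and that of Dcn was -0.38, and Lum was then the only member that passed (-0.91, adjusted p = 0.0343).

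**Figure D4:**
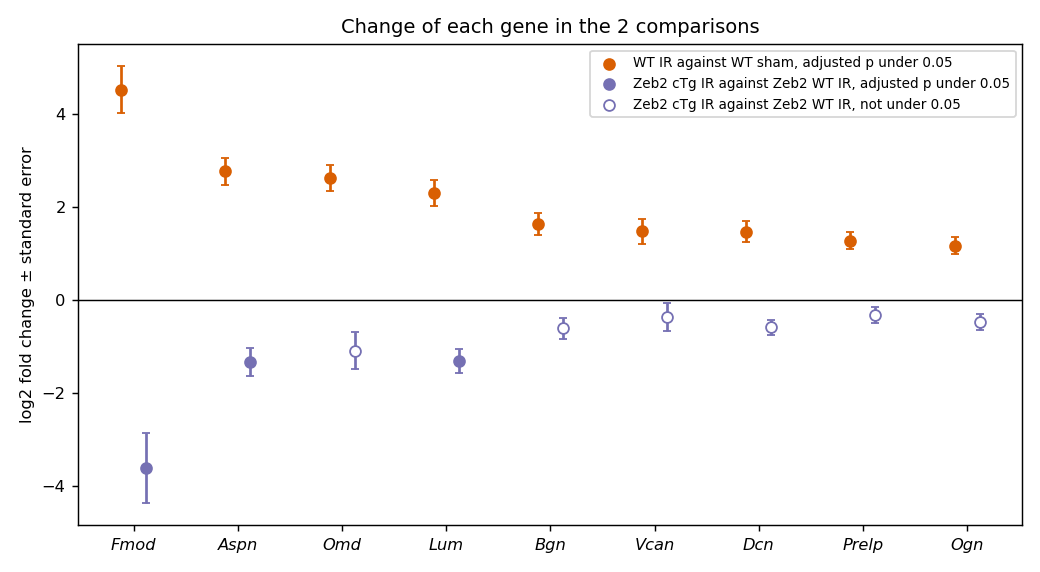
Log2 fold change of each gene with its standard error in both comparisons, ordered by the change after injury, filled where the adjusted p was under 0.05. The values after injury run from 4.53 for Fmod to 1.17 for Ogn and are all filled, and those for the cTg-labelled libraries are all below 0 and filled for Fmod, Aspn and Lum.

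The genes that rose most after injury in WT hearts had the largest negative values in the second table. Over the 9 genes the Spearman correlation between the log2 fold changes of the tables, which share no libraries, was -0.9, given as a description because the genes are not independent of one another. This correlation was not computed over all genes. Opposite signs were not particular to the family: of 12 activated fibroblast markers, 11 had positive log2 fold changes after injury and 10 negative ones in the second table. The make-up of the family also differed between the groups of the second table. Summed over the 9 genes, the level was 147, 162 and 242 CPM per kb in Zeb2 WT IR and 107 to 117 CPM per kb in the cTg-labelled libraries. Dcn and Ogn together held 56.5% to 66.1% of it in Zeb2 WT IR and 66.1% to 72.5% in the cTg-labelled libraries. Lum went from 13.1% to 17.6% to 9.96% to 10.9%, and Aspn from 10.8% to 14.1% to 6.25% to 10.3%. Of the ratios, Bgn to Dcn was 0.232, 0.151 and 0.215 in Zeb2 WT IR and 0.168, 0.219 and 0.202 in the cTg-labelled libraries, a log2 difference near 0 (-0.0037, p = 1, exact permutation test). Aspn to Dcn was 0.605 times as high (p = 0.1, exact permutation test, adjusted p = 0.15) and Fmod to Lum 0.128 times as high with the same p, in both cases with no overlap and at the smallest p that 3 against 3 libraries allow.

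The same lists were read in this table. Of the 21 other proteoglycan core proteins tested, edgeR called only Ecm2, and it was lower, at 12.5 ± 0.826 CPM in the cTg-labelled libraries against 22.4 ± 4.91 CPM in Zeb2 WT IR (log2 fold change -0.85, SE 0.17, adjusted p = 0.0283, edgeR's quasi-likelihood test). The median of that list was 0.054, and DESeq2, which called more genes than edgeR over the whole table, called 1 of its genes higher and 4 lower. Of 26 glycosaminoglycan enzymes 1 passed, Papss2, which was lower (-0.69, adjusted p = 0.0317). Of 15 genes of the versican and hyaluronan network 2 passed, both lower: Cemip, which degrades hyaluronan (-2.80, adjusted p = 0.0143), and Adamts5 (-0.58, adjusted p = 0.0330). Cemip was at a very low level, with 0.674 ± 0.206 CPM in Zeb2 WT IR and 0.0954 ± 0.0265 CPM in the cTg-labelled libraries. Of the 18 partners and receptors 2 fell, the fibrillar collagens Col3a1 (-1.88, adjusted p = 0.0213) and Col1a2 (-1.39, adjusted p = 0.0497), and the median of the list was -0.56. DESeq2 called 5 of these 18 lower.

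Cell type markers moved here as well. Of 12 markers of activated fibroblasts edgeR called 3 lower (Lox, Cthrc1 and Tnc) and 1 higher (Acta2), with sums of 341, 228 and 689 CPM in Zeb2 WT IR and 152, 223 and 197 CPM in the cTg-labelled libraries. At an unadjusted p under 0.05, 9 were lower and 2 higher. DESeq2 called 6 lower and 1 higher, and limma-voom 2 lower and 1 higher. The median log2 fold change of this list was -1.53. None of 10 general fibroblast markers passed with edgeR or limma-voom (4 were lower at an unadjusted p under 0.05, and DESeq2 called 1 lower), and their sums overlapped, with 516, 393 and 526 CPM against 598, 400 and 696 CPM. Gsn, which held 48.1% to 69.2% of the sum over all libraries, had means of 245 CPM in Zeb2 WT IR and 370 CPM in the cTg-labelled libraries. Its log2 fold change was 0.59 (adjusted p = 0.220, edgeR's quasi-likelihood test). Of the 10 markers, 5 had positive and 5 negative log2 fold changes, with a median of -0.06. Of 15 cardiomyocyte markers 2 were higher and none lower with edgeR and limma-voom (4 were higher and 1 lower unadjusted, and DESeq2 called 3 higher and 1 lower), with sums of 64390 to 70209 CPM in Zeb2 WT IR and 71618 to 75551 CPM in the cTg-labelled libraries. Most of these sums came from Ttn, with means of 42227 and 46512 CPM (log2 fold change 0.14, adjusted p = 0.642, edgeR's quasi-likelihood test). Of the 15 markers, 11 had positive and 4 negative log2 fold changes. None of 8 macrophage markers passed with edgeR or limma-voom (3 were higher unadjusted, and DESeq2 called 1 higher), and none of 8 endothelial markers (3 were lower unadjusted, and DESeq2 called 1 lower). Over all 13018 genes, at least 3056 met the unadjusted cut. Of 7 smooth muscle and pericyte markers tested edgeR called 1 lower (Abcc9), with 1 higher and 3 lower unadjusted. The sums of that list did not overlap, with 708 to 836 CPM in Zeb2 WT IR and 537 to 596 CPM in the cTg-labelled libraries. Most of these sums came from Rgs5 (means of 401 and 310 CPM) and Abcc9 (309 and 182 CPM). Of the 7 markers tested, 3 had positive and 4 negative log2 fold changes. Of 3 atrial markers tested edgeR called 1 higher (Nppa) and DESeq2 2 higher and 1 lower, with sums of 29.7 to 71.1 against 106 to 285 CPM. Nppa made up most of these sums, with means of 38.7 CPM in Zeb2 WT IR and 208 CPM in the cTg-labelled libraries. Myl7 (0.0135 and 0.378 CPM) and Sln (0 and 0.0655 CPM) were again too low to be tested. Of 2 mesothelial markers tested none passed with edgeR or limma-voom (1 was lower unadjusted, and DESeq2 called 1 lower), and the sums overlapped. Of 3 cartilage, tendon and valve genes tested none passed with any of these tools, with 1 lower unadjusted. The part of these cell types in the lower proteoglycan levels was not tested. Changes in this table also went with base composition: over 12892 genes, the Spearman correlation of the log2 fold change with GC content was 0.552, against -0.292 in the WT table. Aspn has a GC content of 34.3%, Lum of 41.9% and Fmod of 53.7%. After a correction for GC content Lum (-1.12, adjusted p = 0.0387) and Fmod (-3.85, adjusted p = 0.0226) passed and Aspn did not (-1.04, adjusted p = 0.0559). Of the members that had not passed, the correction moved Dcn (GC content 37.4%) from -0.59 to -0.32 and Ogn (36.3%) from -0.48 to -0.19, and it moved Prelp (53.8%) from -0.32 to -0.53 (adjusted p = 0.0727).

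**Figure D5:**
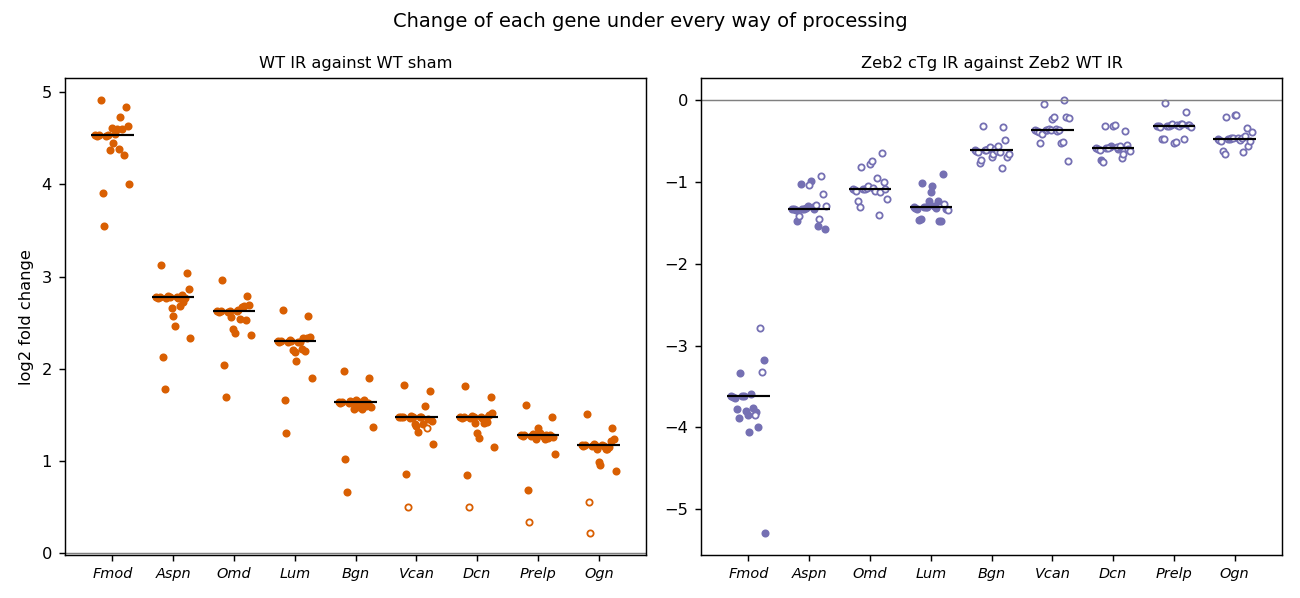
Log2 fold change of each gene under every way of processing that was tried, with 1 point for each way, filled where the adjusted p was under 0.05, and a black line at the value reported. All points for WT IR against WT sham lie above 0, down to 0.22 for Ogn, and all those for the cTg-labelled libraries lie below 0, up to -0.0035 for Vcan.

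Outside the family, genes were ranked over the 12 libraries by the correlation of their log2 CPM, centred within each table, with the mean profile of the 9 genes. Among 5107 genes, those that followed it most closely included Dpt (Pearson r 0.994), which encodes the collagen- and decorin-binding protein dermatopontin, Sparc (0.992), Cilp (0.990) and Col8a1 (0.990). These encode matrix proteins, and Dpt, Cilp and Col8a1 are among the fibroblast markers used above. The members' own correlations with this profile, of which each is a part, ran from 0.938 for Vcan to 0.995 for Dcn. These values are descriptions, because the libraries of a group share its treatment.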

How the data were processed

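RNA from 12 mouse hearts was sequenced on stranded libraries as single-end reads. The authors aligned reads with STAR 2.4.2a, counted them with HTSeq 0.6.1 on mm10 per the submitters' processing notes, and deposited raw counts per gene in 2 tables of 6 libraries and 38293 genes, with no normalisation. The labels name an mRNA kit and the methods a total RNA kit. All columns were used, and groups and replicate numbers came from the labels. Replicates are separate mice per the deposited design.

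Each comparison was fitted in its own table with edgeR 4.0.16 (R 4.3.3): low counts were removed by filterByExpr at its settings of 10 counts and 15 in total, libraries were scaled by TMM, and p-values of the quasi-likelihood test were adjusted by Benjamini-Hochberg across every gene that was tested (threshold 0.05). CPM are counts per 1e6 normalised counts. Ratios were compared by two-sided exact permutation tests with adjustment over the 6 tests. Symbols, exon lengths and positions came from GENCODE M21 (GRCm38), which matched 36345 of the identifiers. The scripts were tested on data simulated with the dispersions of these fits, where 193 tested genes had a log2 change of 1.5 in either direction. Of these, 92.2% were called in the right direction in the WT table and 88.6% in the second. Unchanged genes made up 7.29% and 6.56% of the calls, above the threshold of 0.05.

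The members, the lists of genes and the tests were chosen with earlier results of these data known. Text names all members, the first 6 genes by p of each functional list that passed in either comparison, defining markers of cell types and the 5 genes with the most similar profile (mean CPM of at least 10). A gene that meets this rule is not reported here. Alternatives were other size factors, no mitochondrial genes, other filters, the replicate number as a block, a loess correction for GC content (span 0.5), 1 fit of both tables, leaving out single libraries, limma-voom (limma 3.58.1), DESeq2 1.42.0 and, for ratios, 1 count added. Size factors without Gsn were added after the data had been seen. Figures were drawn with matplotlib.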

Additional observations from a re-analysis of the deposited data

How the results depend on the processing

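No member changed direction under any alternative tried. In WT IR against WT sham, all 9 members passed throughout, except for 8 with fibroblast size factors (Ogn 0.56, adjusted p = 0.0579), 5 with these factors without Gsn, the 7 tested with at least 10 counts in every library, and 8 to 9 with a library left out. The 2859 genes called became 6943 and 10719 with the fibroblast size factors with and without Gsn, which moved the median of all genes to -0.54 and -0.87, 1424 with all 12 libraries in 1 fit and 421 to 4980 with a library left out, lowest without WT sham replicate 2 and highest without WT IR replicate 1. Cardiomyocyte size factors moved that median to 0.30 and the share of calls that were higher from 53.1% to 93.3%, against 5.31% and 1.85% with the fibroblast factors, and the 9 members passed.

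In the second table, 3 members passed, 5 with no filter (Dcn and Bgn added), 1 with limma-voom (Lum) and 0 to 3 with a library left out. The 0 came without Zeb2 cTg IR replicate 1. With at least 10 counts in every library, 2 of 8 tested passed (Aspn and Lum). With fibroblast size factors 2 passed (Lum and Fmod), with Aspn at -1.42 (adjusted p = 0.079, edgeR's quasi-likelihood test) and a members' median of -0.76. Without Gsn, Aspn, Lum and Fmod passed. The members' median was then -0.32, with Dcn at -0.32, Vcan at -0.056 and Prelp at -0.044, and that of all genes 0.25. Dcn also passed with DESeq2 (-0.60, adjusted p = 0.0149) and with cardiomyocyte size factors (-0.74, 0.0466), and adjusted p for Dcn ran from 0.0149 to 0.453 over all alternatives. Aspn passed in 13 of 20 alternatives, Lum in 18 of 20 and Fmod in 16 of 19, Fmod not being tested with at least 10 counts in every library. The 474 genes called became 239 and 2079 with the fibroblast size factors with and without Gsn, 1553 with no filter, 801 with the GC correction, 1932 with all 12 libraries in 1 fit, 1096 with DESeq2 and 98 to 2419 with a library left out, lowest without Zeb2 WT IR replicate 3 and highest without Zeb2 cTg IR replicate 2. Fewer libraries are part of the latter construction, and the cause of the other shifts was not tested.

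Replicate numbers belong to different mice. The deviations of same-numbered libraries correlated at 0.215, 0.396 and -0.033 in the second table and at -0.053 to -0.0051 in the WT table. For libraries with different numbers these values ran from -0.475 to 0.481 and from -0.149 to 0.144. With 3 libraries in each group, they cannot show whether same-numbered libraries belong together. With the replicate block, 1813 genes were called in the second table (730 with the GC correction added) and 4 members, Dcn included (-0.56, adjusted p = 0.0219), and 2595 genes and 9 members in the WT table.

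Some values changed sign. The rise of Zeb2 after injury, which had passed (0.47, adjusted p = 0.0219), became -0.093 (adjusted p = 0.750) and -0.43 (0.171) with the fibroblast size factors with and without Gsn, and in the cTg-labelled libraries (-0.07) it became 0.19 without Gsn, 0.15 with the GC correction, 0.15 with block and GC correction, and -0.13 to 0.019 with a library left out, above 0 without Zeb2 WT IR replicate 3. The log2 difference of Bgn to Dcn there (-0.0037) lay between -0.19 and 0.12 with a library left out. The few counts of Fmod and Omd limit their precision.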
